A study of Mus musculus with 36 samples.

Results

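The genes described here are the mouse zinc finger protein genes that the array names Zfp600 to Zfp999, with an optional final letter after the number. The arrays carried 277 probes for 150 such genes, of 56605 probes for 37074 gene names in all. Each gene was read from its brightest probe, chosen by the mean log2 signal over the 36 arrays, so the average brightness of the members was used to choose probes while no difference between groups was used. Of the 150 members, 137 (91.3%) were tested, because 5 or 6 of the 6 arrays of some group read their probe well above background, and 65% of all gene names passed the same filter. The other 13 members were not tested, and 9 of them were not well above background on any array. The Zfp numbers are names and not a gene family of their own, so 211 Zfp genes with lower numbers, 194 of them tested, were described the same way for comparison.

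Most genes named Zfp encode proteins with C2H2 zinc fingers, short modules folded around a zinc ion by a pair of cysteines and a pair of histidines. Fingers repeat in tandem, joined by a conserved linker, and each contacts a few bases of DNA. In many of these proteins a KRAB domain ahead of the fingers recruits the corepressor TRIM28 (KAP1), which brings the histone methyltransferase SETDB1 and heterochromatin proteins to the bound DNA. KRAB zinc finger genes lie in clusters of related copies, and many of their products silence transposable elements. In mouse liver the best known are the Rsl (regulator of sex-limitation) genes of chromosome 13, which repress sex-biased liver genes.

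Some probes lie in letters that encode these features, and 2 are shown because they read members whose levels the results turn on. Both are 60 bases long with coordinates on the mouse assembly mm9. The first is a further probe of Zfp949, not the chosen one, at chr9:88462049-88462108, in which the capitals mark letters that encode part of a KRAB box. The second is the probe of Zfp873 at chr10:81524009-81524068, in which the capitals mark letters that encode the start of a linker between fingers.
Zfp949: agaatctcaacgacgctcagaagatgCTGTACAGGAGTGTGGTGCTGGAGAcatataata
Zfp873: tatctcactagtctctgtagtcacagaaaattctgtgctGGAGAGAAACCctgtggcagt
The linker letters, searched as GGNGA directly followed by NAANCC (N is any base) in the probe's own orientation, stood in 9 of the 150 chosen member probes (6.0%) and in 90 of all 56605 probes (0.159%). The KRAB letters were in 0 of the 150 chosen probes, 1 of all 277 member probes and 2 of all 56605. Since fingers of different proteins are alike, a probe within them can also bind RNA of a related gene. The chosen probes of 6 members, among them Zfp937, Zfp658 and Zfp747, shared at least 50 bases with a probe of another gene name, and their values are uncertain to that degree. At least 40 bases were shared by 19 of the 150. Probes were compared only with other probes of the array and not with whole transcripts. Binding to related RNA is therefore not excluded for the other members.

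RNA came from the livers of 36 male mice of a C57Bl/6J background, and each mouse had its own Agilent array in 1 colour. AAKO mice lack adipose triglyceride lipase (ATGL, gene Pnpla2) in white adipose tissue, and CTRL mice are their controls. Each genotype was studied fed, after a 24 h fast, and fed with CL316243, a beta 3 adrenergic receptor agonist that drives fat breakdown in adipocytes, with 6 mice in each of the 6 groups. The agonist was gavaged once at 3 mg/kg in carboxymethyl cellulose at Zeitgeber time 10, and livers of all groups were taken at Zeitgeber time 16. The ages of the mice and the promoter behind the deletion are not given in the labels. The deletion lies in adipose tissue, so no liver transcript can check the genotype labels. The labels place fed groups in experiment 2, and both other conditions in experiment 1. Comparisons with fed mice therefore also compare experiments, whereas the genotype comparisons and fasting against CL316243 stay within 1 experiment. A gavage is stated for the CL316243 groups only.

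A level below is the log2 processed signal minus the log2 of the array's 75th percentile, so that 0 is the brightness of that percentile, and levels of different genes depend on their probes and are not compared as amounts of RNA. A difference is a log2 fold change between group means, with its standard error and a p-value from limma adjusted over all 24102 tested genes by the Benjamini-Hochberg method. Genes with an adjusted p under 0.05 are called. The p-values measure the spread between these mice. In whole liver, fewer cells of a type and less RNA per cell cannot be told apart.

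Between 33131 and 37203 probes were well above background on each array. The CTRL fasted array of replicate 2 stood apart from its group, with a first principal component score of 80.9 against 16.7 to 28.9 for the other CTRL fasted arrays and 102 to 110 for the AAKO fasted arrays. Leaving it out moved the count of members called between the fasted genotypes from 90 to 95. Hepatocyte markers summed to similar levels in CTRL fasted (4080 to 4470) and AAKO fasted (4270 to 4590) livers, on a linear scale where 1 is the 75th percentile, and of 7 such markers 3 were called higher and 3 lower in AAKO. The summed level of 4 neutrophil markers ran from 1.31 to 78.8 in CTRL fasted and from 9.19 to 123 in AAKO fasted livers, and 3 of the 4 were called higher in AAKO. Of the stellate cell markers 2 of 5, of the sinusoidal endothelial markers 2 of 5 and of the Kupffer cell markers 0 of 6 were called higher there. Called lower there were 2 of 5 cholangiocyte markers, 1 of 4 T cell markers, and 1 of 2 tested markers each of erythroid cells and exocrine pancreas. The part of these cells in the results below was not tested.

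The members were detected widely. Of the 150, 127 were well above background on all 36 arrays, and the median level of the tested members was -0.24, against -0.49 for all tested genes and -0.85 for the lower-numbered Zfp genes. The 5 brightest probes were those of Zfp628, Zfp937, Zfp791, Zfp658 and Zfp646, with mean levels of 10.06, 7.87, 6.74, 6.43 and 6.04. The group means of Zfp628 lay between 9.88 and 10.19. For 88 members the array held several probes, and the probes of 1 gene differed by a median of 2.07 in log2 brightness. At least 1 comparison called 131 members (95.6%), against 84.6% of all tested genes.

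Between AAKO and CTRL livers of fed mice, 1 member, Zfp949, differed. It was 1 of 19 genes called of 24102 (0.0788%; 0.0415% higher and 0.0373% lower), and 3 members had an unadjusted p under 0.05. Zfp949 ran from -1.31 to -0.78 (median -0.89) in CTRL fed livers and from -0.20 to 0.37 (median 0.17) in AAKO fed livers. After fasting it ran from -0.65 to -0.27 (median -0.42) in CTRL and from 0.62 to 1.0 (median 0.76) in AAKO. With CL316243 the values were -0.87 to -0.56 (median -0.69) in CTRL and 0.17 to 0.65 (median 0.48) in AAKO. Every AAKO liver was above every CTRL liver of its condition. In fed mice such a separation was seen for 0.253% of all genes upward and 0.44% downward. The difference was 1.1 ± 0.10 (SE, adjusted p = 3.42e-08, limma) in fed, 1.24 ± 0.10 (8.94e-12) in fasted and 1.13 ± 0.10 (7.91e-10) in CL316243 mice. No other member was called in the same direction in all 3 conditions. The genotype difference of Zfp949 was not called as different between conditions, with interaction values of 0.14 (adjusted p = 0.49) for fasting and 0.03 (0.94) for CL316243. Zfp949 was higher in fasted than in fed livers by 0.50 in CTRL (adjusted p = 8.25e-05) and by 0.64 in AAKO (9.71e-07). Whether the genotype difference is tied to how the mouse line was made was not tested. Its further probes gave 0.87 and 0.90 in fed livers. Within wash batch 2 alone the fed difference was 1.14 with an adjusted p of 0.111, where no gene was called.

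The chosen Zfp949 probe lies at chr9:88465683-88465742 (mm9). Of 26 other tested genes with a probe within 1 Mb, 1 was called in fed, 10 in fasted and 2 in CL316243 mice. The one called in fed mice was also the only one called in all 3 conditions. It is a noncoding transcript that the array names only by its position, with its probe 0.6 kb from that of Zfp949 on the same strand. It differed by 1.05 in fed, 1.19 in fasted and 1.2 in CL316243 mice, and the span in its name covers the Zfp949 probe, so both probes may read the same RNA. Of the other neighbours, Snhg5, a noncoding host gene of small nucleolar RNAs, was higher in AAKO by 1.69 after fasting (adjusted p = 1.21e-07) and differed by -0.19 in fed mice (0.908). Nt5e, which encodes an ectonucleotidase that makes adenosine, was lower in AAKO with CL316243, with a difference of -1.40 (adjusted p = 0.00019).

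**Figure D1:**
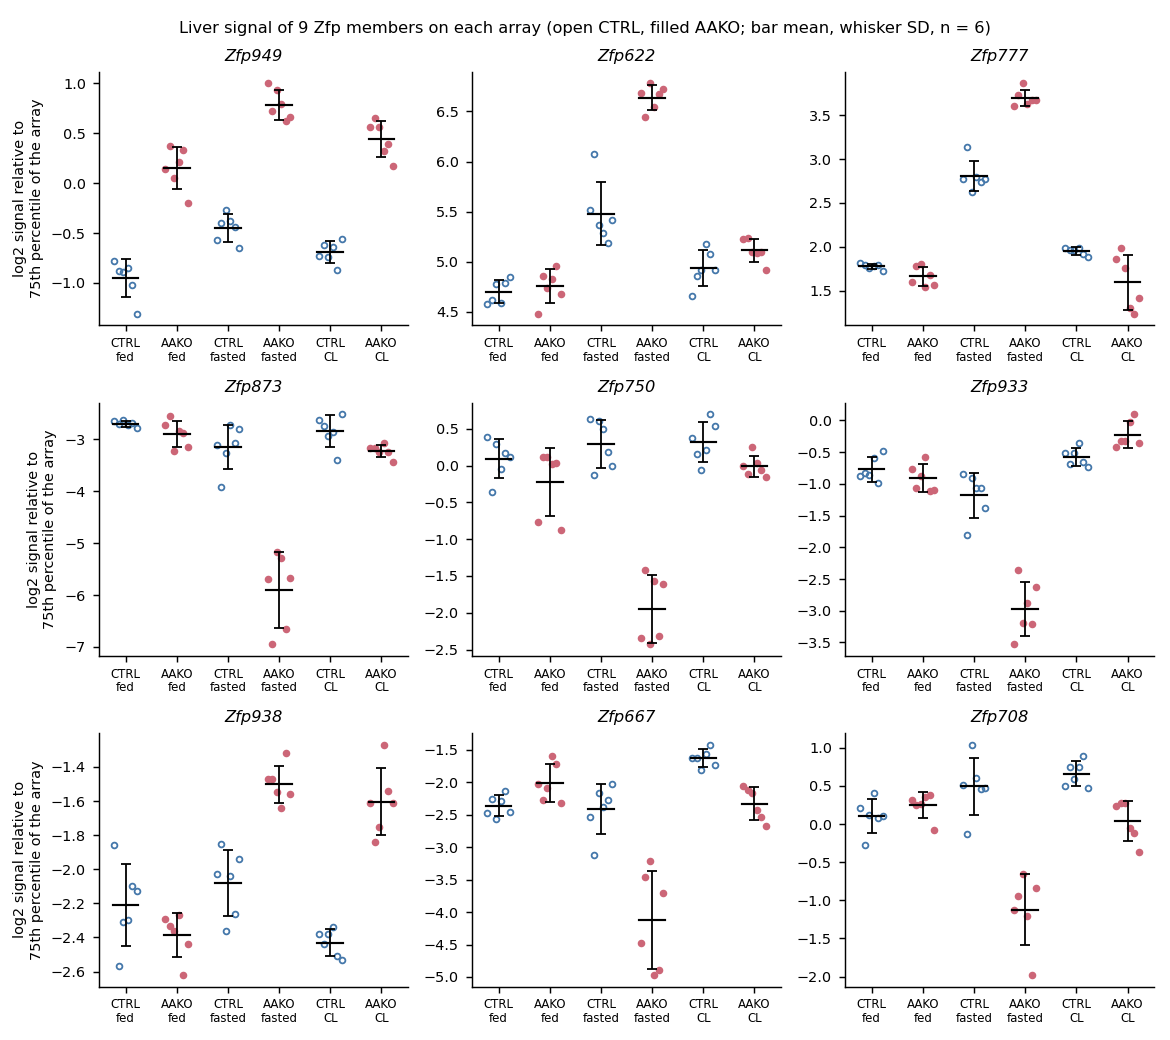
Level of 9 named members (log2, with the array's 75th percentile at 0) in each of the 36 livers, with open circles for CTRL, filled circles for AAKO, a bar at the mean of 6 and whiskers of 1 SD. AAKO livers lie above CTRL livers in all 3 conditions for Zfp949, while Zfp873, Zfp750 and Zfp933 reach their lowest values in AAKO fasted livers.

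After a 24 h fast the genotypes differed at 90 of 137 members (65.7%), 26 higher and 64 lower in AAKO. Of all tested genes 49.2% were called, 21.9% higher and 27.3% lower. The median difference of the members was -0.24, against -0.03 for all tested genes. The lower-numbered Zfp genes gave like shares, with 40 higher and 90 lower of 194 (67%) and a median of -0.21. The 6 AAKO arrays were all above the 6 CTRL arrays for 11 members (9.71% of all genes) and all below them for 23 (11.5% of all genes). Across arrays, the median level of the tested members ran from -0.27 to 0.01 in CTRL fasted and from -0.64 to -0.35 in AAKO fasted livers, which did not overlap. Members called lower had a dimmer median level over all arrays (-1.09) than members called higher (1.49). Over all tested genes these medians were 0.66 for lower and 0.6 for higher calls. The part of brightness in the direction of the calls was not tested.

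Among the members higher in AAKO fasted livers, Zfp622, whose human counterpart acts in the maturation of the large ribosomal subunit, ran from 5.19 to 6.08 (median 5.40) in CTRL and from 6.44 to 6.78 (median 6.67) in AAKO. The groups did not overlap, and the difference was 1.16 ± 0.11 (adjusted p = 2.53e-10). In fed livers Zfp622 had medians of 4.70 in CTRL and 4.79 in AAKO, so fasted AAKO livers were the highest of the 6 groups. Zfp689 ran from -0.09 to 0.88 (median 0.23) in CTRL and from 1.2 to 1.47 (median 1.33) in AAKO fasted livers, again without overlap (1.05 ± 0.11, 3.69e-09). Zfp623 differed by 0.92 ± 0.13 (6.9e-07), Zfp777 by 0.88 ± 0.09 (3.84e-09) and Zfp771 by 0.76 ± 0.09 (1.68e-08), each with all AAKO arrays above all CTRL arrays. Zfp703, a corepressor known from breast cancer, differed by 0.70 ± 0.14 (6.47e-05), with overlap between the groups. For Zfp622 the mean of its 3 probes gave 0.46 in place of 1.16.

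Members lower in AAKO reached larger differences. Zfp873, with the probe printed above, ran from -3.92 to -2.73 (median -3.10) in CTRL fasted livers and was not well above background on any of the 6 AAKO fasted arrays, where it read -6.95 to -5.18. It was therefore at least 5.52-fold lower in AAKO (fitted difference -2.75 ± 0.22, adjusted p = 1.04e-11). In the other 5 groups the Zfp873 medians lay between -3.21 and -2.71, and AAKO fasted livers stood alone. Zfp750, known as a regulator of epidermal differentiation, ran from -0.13 to 0.63 (median 0.34) in CTRL and from -2.43 to -1.42 (median -1.97) in AAKO fasted livers. No array of the groups overlapped, and the difference was -2.25 ± 0.20 (6.31e-11), while the fed and CL316243 medians of Zfp750 lay between -0.03 and 0.29.

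Zfp933 ran from -1.80 to -0.85 (median -1.06) in CTRL and from -3.53 to -2.36 (median -3.03) in AAKO fasted livers (-1.79 ± 0.15, 5.32e-11). Its second probe gave 0.18, the opposite sign. Zfp661 went from a median of 1.35 in CTRL to -0.51 in AAKO (-1.71 ± 0.13, 1.95e-12), and Zfp780b from -0.09 to -1.68 (-1.42 ± 0.14, 7.79e-10). Both separated all AAKO from all CTRL fasted arrays. Further members that did so were Zfp667 (-1.70), Zfp760 (-1.64), Zfp708 (-1.62), Zfp773 (-1.5) and Zfp772 (-1.46). The size of a difference at such dim probes depends on the background correction and its offset. The normexp values here and below use the mean and local background signals with an offset of 50. With it Zfp873 gave -0.51, Zfp933 -0.87 and Zfp667 -0.56, and each stayed called. An offset added to every signal by itself narrows log2 differences at dim probes, and its part was not tested. Of the 90 called members 48 had a further probe that passed the filter, and of their 65 further probes 50 gave the same sign as the chosen one.

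**Figure D2:**
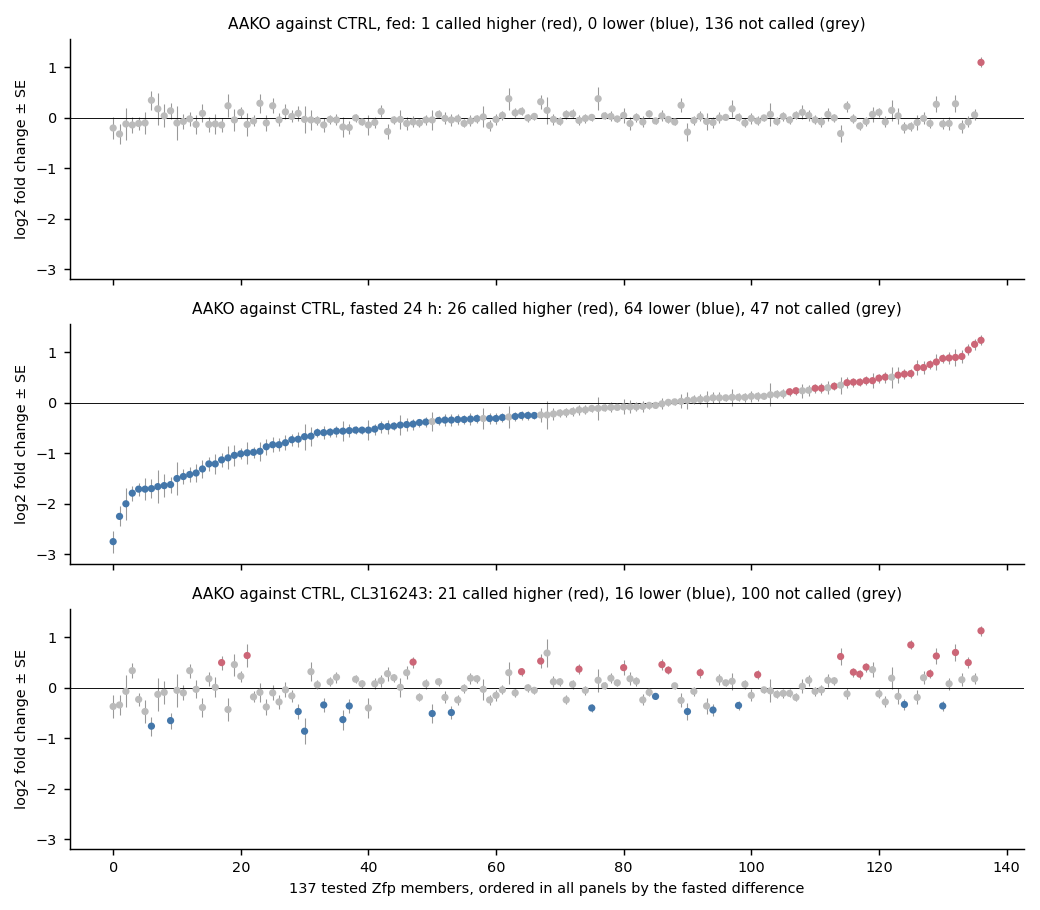
Log2 difference between AAKO and CTRL livers for the 137 tested members in fed, fasted and CL316243 mice, each with its standard error, ordered by the fasted difference. The fed values stay near 0 apart from Zfp949 at 1.1, and the fasted values reach from -2.75 to 1.24.

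Members lie in runs along the chromosomes, defined here by gaps of at most 1 Mb. There were 15 runs of 3 or more members holding 82 of the 150. In the runs 15 of 77 tested members were higher and 37 lower in AAKO fasted livers (median -0.27), and outside them 11 of 59 were higher and 27 lower (median -0.11). One of the longest runs, on chromosome 13 (chr13:66141640-67718055, mm9), holds Zfp640, Zfp712, Zfp708, Zfp759, Zfp953, Zfp874a, Zfp874b, Zfp748, Zfp729b and Zfp729a. Zfp640 was not tested and the other 9 of 9 were lower in AAKO fasted livers. Their differences were -1.66 for Zfp712, -1.62 for Zfp708, -1.21 for Zfp759, -0.83 for Zfp953, -0.54 for Zfp874a, -0.98 for Zfp874b, -2.0 for Zfp748, -0.58 for Zfp729b and -0.35 for Zfp729a. The same 9 were lower in fasted than in CL316243 livers of AAKO mice. A second probe of Zfp729b gave 0.04. Over the whole of chromosome 13, members outside the run included, 12 of 12 tested members were lower in AAKO fasted livers (median -0.91).

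The interval of this run also holds other genes. Of 23 tested genes there that are no members, 3 were higher and 13 lower in AAKO fasted livers, with a median of -0.36. Of these, 8 are Zfp genes with lower numbers, 7 of them lower. By their RefSeq synonyms, 6 members of the run (Zfp708, Zfp729a, Zfp748, Zfp759, Zfp874a and Zfp874b) are candidates for Rsl genes (Rslcan). All 6 were lower, as were 9 of 11 tested genes of the Rsl family that are no members. The 2 exceptions were Rsl1 itself, with a difference of -0.18 ± 0.14 (adjusted p = 0.314), and Zfp429, which is Rsl2, with -0.31 ± 0.17 (0.147). Rslcan18 differed by -2.06 ± 0.19 (1.51e-10). These counts overlap, because the 6 members belong to the 9 of the run and most of the 8 lower-numbered Zfp genes are among the 11. Of all tested genes 27.3% were lower.

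Zfp708 ran from -0.13 to 1.04 (median 0.49) in CTRL and from -1.98 to -0.65 (median -1.04) in AAKO fasted livers, and from -0.27 to 0.41 in CTRL fed livers. Zfp748 ran from -4.35 to -1.84 (median -2.21) in CTRL fasted livers and from -6.09 to -3.55 (median -4.28) in AAKO fasted livers, where 4 of 6 arrays were well above background. Its CTRL array of replicate 2, at -4.35, overlapped the AAKO arrays. Of the 15 runs, 9 held calls in both directions, 5 held lower calls alone and 1 a higher call alone. A run of 10 members on chromosome 17 (chr17:21535980-22998961), all tested, had 1 higher and 4 lower, with a median of -0.22. A run of chromosome 7 (chr7:134398254-135024784) had 5 members higher, among them Zfp689, and 3 lower, and another (chr7:6094005-7154846) had Zfp787 higher and Zfp667, Zfp954, Zfp773 and Zfp772 lower.

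**Figure D3:**
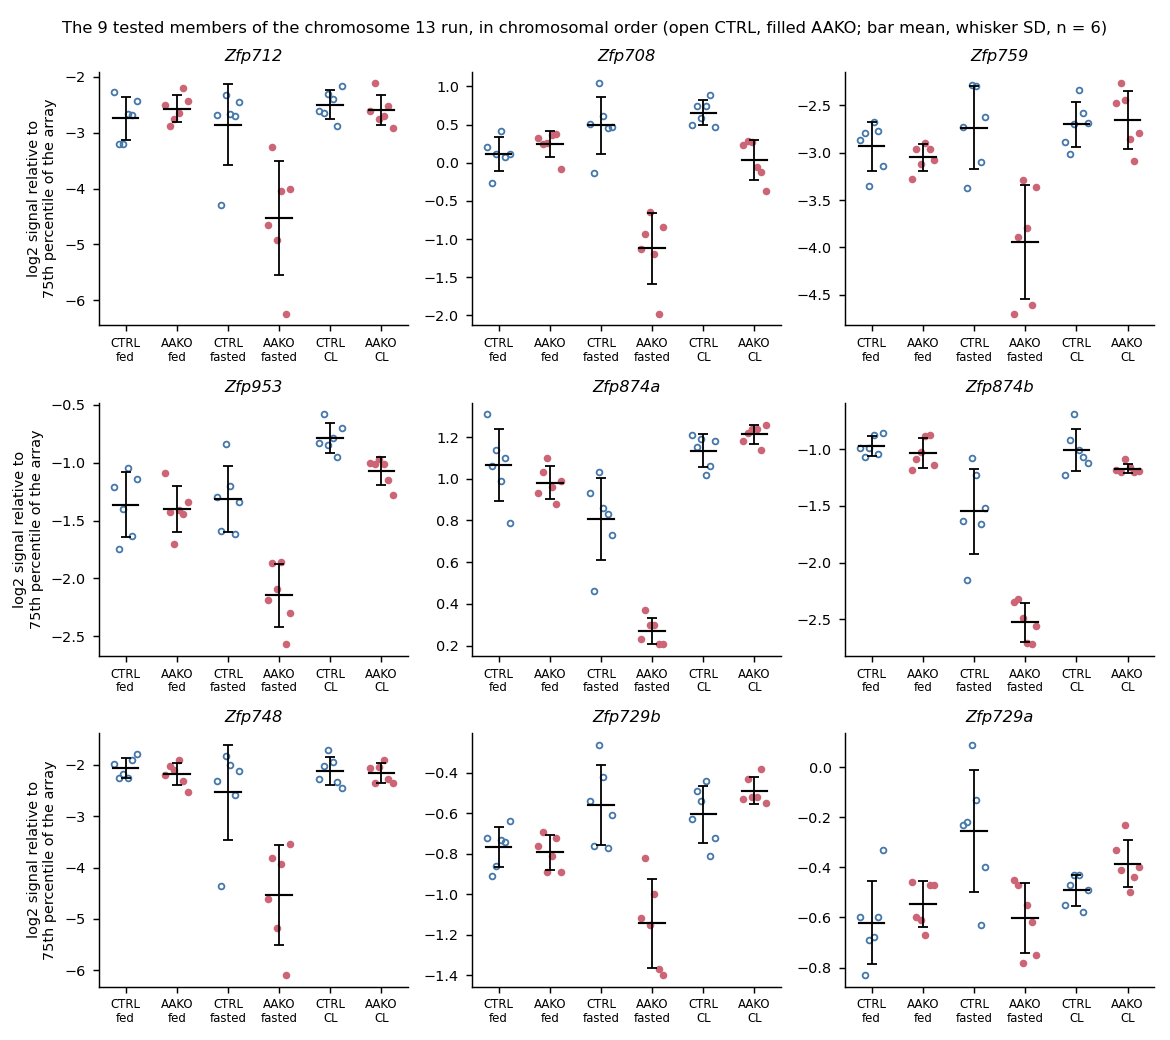
Levels of the 9 tested members of the chromosome 13 run by group (log2, with the array's 75th percentile at 0), with 6 livers a group, open circles for CTRL and filled circles for AAKO. AAKO fasted livers lie below CTRL fasted livers on average for each member, with differences from -0.35 for Zfp729a to -2.0 for Zfp748.

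Promoter sequences were compared because the run moved in 1 direction. They are the RefSeq windows from 250 bases before to 50 bases after the start of each gene on GRCm38.p6, which held 129 members. After the letters of the chromosome 13 promoters had been read, the letters ACTACA, any 1 base and TTCCC, without gaps, were counted on both strands. They are part of the known motif of the transcription factor ZNF143 (mouse Zfp143). The windows below run 5′ to 3′ on the strand of the gene, end at its start site or earlier, and carry the letters in capitals, as GGGAA, any base and TGTAGT where they lie on the opposite strand. They are shown for 7 members of the run and for Zfp933 and Zfp780b elsewhere, all lower in AAKO fasted livers.
Zfp712 (chr13:67061185-67061256, - strand): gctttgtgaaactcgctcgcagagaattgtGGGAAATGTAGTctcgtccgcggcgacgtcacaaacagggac
Zfp759 (chr13:67128146-67128217, + strand): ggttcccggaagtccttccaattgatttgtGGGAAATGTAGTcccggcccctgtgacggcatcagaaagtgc
Zfp953 (chr13:67360606-67360677, - strand): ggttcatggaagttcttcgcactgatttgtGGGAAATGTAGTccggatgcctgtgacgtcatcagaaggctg
Zfp874a (chr13:67451625-67451687, - strand): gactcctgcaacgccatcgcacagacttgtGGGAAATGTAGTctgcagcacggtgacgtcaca
Zfp874b (chr13:67484254-67484318, - strand): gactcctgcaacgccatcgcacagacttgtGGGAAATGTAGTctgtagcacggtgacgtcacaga
Zfp748 (chr13:67553153-67553208, - strand): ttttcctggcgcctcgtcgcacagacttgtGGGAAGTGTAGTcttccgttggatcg
Zfp729a (chr13:67637782-67637845, - strand): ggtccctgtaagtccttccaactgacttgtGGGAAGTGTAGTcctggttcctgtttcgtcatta
Zfp933 (chr4:147848419-147848480, - strand): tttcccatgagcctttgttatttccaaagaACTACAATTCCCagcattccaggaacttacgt
Zfp780b (chr7:27979177-27979248, - strand): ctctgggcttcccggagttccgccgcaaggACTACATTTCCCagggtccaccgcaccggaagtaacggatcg
The letters were in 14 of 129 member promoters (10.9%) and in 278 of 27025 promoters in all (1.03%). Of the 9 promoters of the run 7 had them (77.8%), and that of Zfp708 did not. Zfp873, Zfp661 and Zfp667, all lower in AAKO fasted livers, also had promoters without the letters. Of the members lower in AAKO fasted livers 13 of 56 had them (23.2%), of those higher 0 of 24, and of those not called 1 of 38 (2.63%). Members with the letters had a median difference of -0.91 between the fasted genotypes, and the 104 without them had -0.11, with 24 higher and 43 lower. In fed mice the medians were -0.03 and -0.02, and with CL316243 they were -0.02 and 0.01. Among all tested genes, 239 had the letters, of which 18.4% were higher and 49.8% lower in AAKO fasted livers (median -0.24), against 23.9% higher and 29.4% lower of 12843 without them (median -0.03). The 14 members are Zfp605, Zfp692, Zfp712, Zfp729a, Zfp748, Zfp759, Zfp780b, Zfp790, Zfp874a, Zfp874b, Zfp879, Zfp933, Zfp940 and Zfp953. They are not independent, since 7 of them are neighbouring and related genes of the chromosome 13 run, whose promoters were read to choose the letters. Outside the run, 6 of the 7 members with the letters were lower and 0 higher (median -0.83), against 42 lower and 24 higher of 103 without them (median -0.11). There the letters were in 12.5% of the lower and 2.63% of the uncalled members. The 7 with the letters there are not all independent either. Zfp790 and Zfp940 are neighbours, with windows that start at chr7:29815938 and chr7:29853649. The letters describe these windows and show no binding.

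The promoters of the members also differed in base composition. The median number of CpG dinucleotides per window was 21.5 for the members higher in AAKO fasted livers and 11 for the members lower. It was 10 for the members not called and 7 over all promoters. The GC content had medians of 59.3%, 52.3%, 54.0% and 52.7% in this order. In all, 13 letter patterns were counted on either strand. The letters TGACG, part of a cAMP response element, were in 7 of the 9 promoters of the chromosome 13 run (77.8%). They were in 32.6% of member promoters and 21.0% of all. By call between the fasted genotypes they were in 39.3% of the lower, 33.3% of the higher and 31.6% of the uncalled members. The whole element, TGACGTCA, was in 3 of the run's 9 promoters (33.3%), 2.33% of member promoters and 1.88% of all. The run's promoters belong to neighbouring and related genes and are not independent. CCAAT was in 53.5% of member promoters and 37.9% of all.

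**Figure D4:**
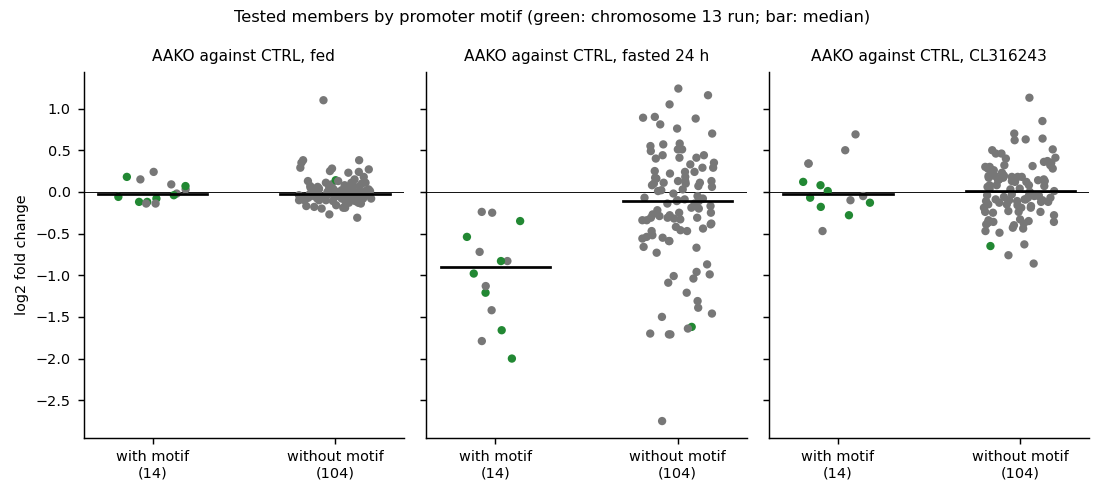
Log2 difference between AAKO and CTRL livers, in panels for fed, fasted and CL316243 mice, of members whose promoter window holds the letters described in the text (14) or not (104), with bars at the medians and green points for the chromosome 13 run. In fasted mice the medians are -0.91 and -0.11, and 13 of the 14 members with the letters were called lower.

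With CL316243 the genotypes differed at 37 members (27%), 21 higher and 16 lower in AAKO, where 24.6% of all tested genes were called (13% higher, 11.6% lower). In the authors' deposited values 44.7% of the member calls were higher, against 56.8% here. All arrays of AAKO were above those of CTRL for 11 members (5.66% of all genes) and below them for 7 (5.67% of all genes). Zfp938 ran from -2.53 to -2.34 (median -2.41) in CTRL and from -1.84 to -1.27 (median -1.61) in AAKO livers. It differed without overlap by 0.85 ± 0.09 (adjusted p = 2.78e-08) and, in fasted mice, by 0.58 ± 0.09 (2.87e-06). Its fed medians were -2.21 in CTRL and -2.34 in AAKO. Zfp719 ran from -2.44 to -2.02 in CTRL and from -2.0 to -1.31 in AAKO livers, a small gap (0.64 ± 0.22, 0.0334) that was no longer called with the slide as a term (0.103). Zfp830, which encodes a protein of the spliceosome, differed by 0.51.

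Zfp667 ran from -1.81 to -1.42 (median -1.62) in CTRL and from -2.68 to -2.06 (median -2.29) in AAKO livers given CL316243 (-0.76 ± 0.19, 0.00256). Zfp708 ran from 0.47 to 0.89 (median 0.67) in CTRL and from -0.37 to 0.28 (median 0.09) in AAKO (-0.65 ± 0.16, 0.00252). Neither gene overlapped between the genotypes. Averaging all probes of the gene ended both calls (adjusted p = 0.139 and 0.106), since the second probe of Zfp667 was not detected and that of Zfp708 gave 0.05. Zfp786 differed by -0.63 ± 0.20 (0.0174) without overlap, at a dim probe where normexp gave -0.13 and no call (0.171). Zfp637, with 2.89 to 3.29 in AAKO and 3.37 to 3.70 in CTRL, had a smaller difference (-0.40 ± 0.07, 0.000125).

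Both genotype comparisons lie within experiment 1 and share no mice. Higher in AAKO in both were 9 members (Zfp653, Zfp672, Zfp689, Zfp747, Zfp771, Zfp791, Zfp869, Zfp938 and Zfp949), and lower in both were 8 (Zfp618, Zfp629, Zfp663, Zfp667, Zfp708, Zfp764, Zfp786 and Zfp879). Of all tested genes 6.02% were higher in both and 6.83% lower in both, against 6.57% and 5.84% of the members. Further probes of Zfp672, Zfp791 and Zfp764 gave the opposite sign in both comparisons, with -0.28, -0.57 and 0.30 when fasted. A further probe also did so for Zfp629 when fasted, and for Zfp618 and Zfp708 with CL316243. With normexp the CL316243 differences of Zfp618 and Zfp786 were not called (adjusted p = 0.0693 and 0.171, limma). Opposite directions were called for 6 members (4.38%, against 3.12% of all genes). Zfp777 and Zfp787 were higher in AAKO when fasted (0.88 and 0.57) and lower with CL316243 (-0.36 and -0.33), though a further dim probe of Zfp787 gave -0.22 when fasted. Zfp719, Zfp790, Zfp830 and Zfp959 were lower when fasted and higher with CL316243, for example Zfp790 with -1.13 ± 0.14 (8.32e-08) and 0.50 ± 0.14 (0.0101). Tested directly, the genotype difference was not the same in fasted and CL316243 mice for 70 members (51.1%), 20 higher and 50 lower when fasted, where 31.8% of all genes were called. The first 3 in each direction were Zfp777 (1.24 ± 0.13, 4.18e-08), Zfp622 (0.98) and Zfp787 (0.90), and Zfp873 (-2.38), Zfp933 (-2.12) and Zfp748 (-1.93). For Zfp622 the mean of its probes gave 0.37, which was not called (adjusted p = 0.121, limma). A further probe of Zfp787 gave the opposite sign here too. The values of Zfp873 and Zfp748 include arrays not well above background.

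Fasted CTRL livers differed from fed CTRL livers at 57 members (41.6%), 44 higher and 13 lower, while 43.8% of all genes were called, 19.7% higher and 24.1% lower. Scaling each array to its median gave 66.0% of the member calls as higher, against 77.2% here. All fasted arrays were above all fed arrays for 20 members and below them for 5, against 10.1% and 12.7% of all genes. Zfp746 (PARIS), a substrate of parkin that represses Ppargc1a, ran from 0.01 to 0.42 (median 0.33) in fed and from 1.63 to 2.11 (median 1.70) in fasted CTRL livers. The groups were well apart, with a difference of 1.5 ± 0.09 (3.81e-14), and in AAKO livers it rose by 1.82 (7.77e-17). Zfp618, known as a partner of UHRF2, ran from -3.05 to -1.73 in fed and from -1.47 to -0.45 in fasted CTRL livers (1.56 ± 0.26, 8.99e-06). For it normexp gave 0.80 and its second probe -0.02. Zfp783 ran from -3.61 to -2.84 and from -2.34 to -1.69 (1.24 ± 0.23, 3.82e-05).

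Among the 13 members that fell with fasting in CTRL mice, Zfp654 ran from -0.75 to -0.51 (median -0.62) in fed and from -1.55 to -0.91 (median -1.34) in fasted CTRL livers. It differed without overlap by -0.67 ± 0.11 (1.23e-05), and the mean of its 4 probes was not called (0.0625). Zfp780b differed by -0.58 ± 0.14 (0.00106) and Zfp874b by -0.58 ± 0.11 (8.2e-05), with no overlap.

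In AAKO mice fasting went with 100 called members (73%), 47 higher and 53 lower, where 63.6% of all genes were called, 27.5% higher and 36.1% lower. The arrays did not overlap for 33 members upward and 36 downward (18.7% and 24% of all genes). Zfp777 ran from 1.55 to 1.81 (median 1.64) in fed and from 3.60 to 3.86 (median 3.67) in fasted AAKO livers, a difference of 2.03 ± 0.09 (2.49e-17). In CTRL it ran from 1.73 to 1.82 in fed and from 2.63 to 3.14 in fasted livers (1.03 ± 0.09, 2.68e-10), so the 4 groups were all apart except that the fed genotypes overlapped. Zfp622 rose by 1.88 ± 0.11 in AAKO (1.41e-15) and by 0.78 in CTRL (5.46e-07). Zfp787 went from 2.80 to 3.21 in fed to 4.82 to 5.04 in fasted AAKO livers (1.87 ± 0.10, 2.12e-16) and rose by 1.11 in CTRL (1.01e-10), whereas a dim further probe of it gave -0.42 and -0.17.

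Downward in AAKO mice, Zfp873 was at least 6.59-fold lower in fasted than in fed livers. Zfp748 ran from -2.53 to -1.91 in fed livers and, as given above, from -6.09 to -3.55 in fasted AAKO livers (-2.35 ± 0.32, 1.48e-07). Zfp760 ran from -1.09 to -0.22 (median -0.63) in fed and from -3.25 to -1.94 (median -2.87) in fasted AAKO livers (-2.14 ± 0.23, 7.59e-10). All 3 genes were lower in every fasted AAKO liver than in any fed AAKO liver. In comparisons whose fed and fasted mice are different animals in each genotype, 30 members were higher after fasting in both genotypes (21.9%, against 14.1% of all genes) and 13 lower in both (9.49%, against 19.7%). Called in AAKO and not in CTRL were 37 lower members (27%, against 15% of all genes) and 17 higher ones (12.4%, against 12.5%). Zfp708, Zfp763 and Zfp820 were higher in CTRL and lower in AAKO (2.19%, against 1.42%). Their rises in CTRL had adjusted p-values of 0.0481, 0.0236 and 0.0445 (limma), and their fed and fasted CTRL arrays overlapped. A further probe gave the opposite sign for Zfp708 in CTRL and for Zfp763 in AAKO.

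The difference between these responses was tested as the interaction of genotype and fasting, in which a shared shift between experiments cancels. It was called for 66 members (48.2%), 20 higher and 46 lower in AAKO, against 33.6% of all genes (15% higher, 18.6% lower), with medians of -0.25 and -0.04. The lower-numbered Zfp genes had 100 calls of 194. Upward the first were Zfp689 (1.13 ± 0.16, 1.92e-06), Zfp622 (1.1 ± 0.15, 1.54e-06) and Zfp623 (1.09 ± 0.19, 2.75e-05). Zfp689 hardly differed between fed genotypes, with medians of 0.09 in CTRL and 0.00 in AAKO. For Zfp622 the mean of its probes gave 0.36, which was not called (0.122). Downward the first were Zfp873 (-2.55 ± 0.31, 1.89e-07), Zfp667 (-2.06 ± 0.26, 4.15e-07) and Zfp750 (-1.93 ± 0.28, 2.36e-06). Zfp708 had -1.76 and Zfp933 -1.65.

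**Figure D5:**
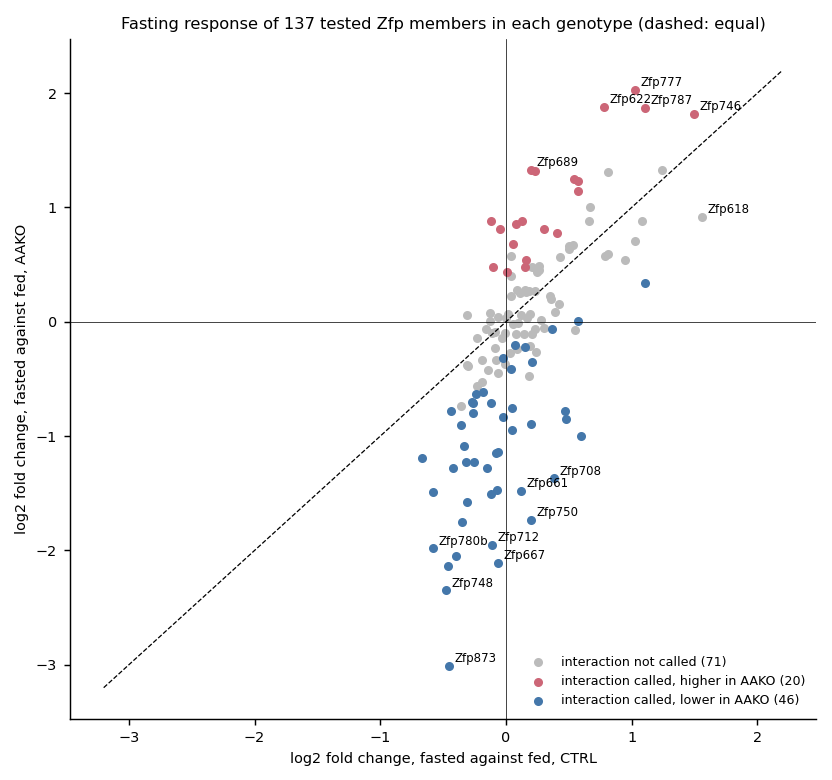
Log2 difference between fasted and fed livers of the 137 tested members, in CTRL mice on the horizontal axis and in AAKO mice on the vertical axis, coloured by the call of the interaction. The interaction was called higher for 20 members, lower for 46 and not called for 71.

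CL316243 against fed mice gave 33 called members in CTRL (24.1%), 28 higher and 5 lower, where 23.2% of all genes were called (10.5% higher, 12.7% lower). In AAKO it gave 50 (36.5%), 43 higher and 7 lower, against 31.4% of all genes (15.5% higher, 15.9% lower). The arrays did not overlap for 14 members upward and 3 downward in CTRL (5.72% and 6.61% of all genes) and for 17 and 3 in AAKO (7.25% and 7.69%). In the authors' deposited values 73.3% of the AAKO calls were higher, against 86% here. Lower-numbered Zfp genes went the same way, with 31 higher and 10 lower in CTRL and 52 higher and 7 lower in AAKO. By contrast, markers of some other cells were called lower with CL316243. These were 5 of 5 of sinusoidal endothelium, 4 of 5 of stellate cells and 3 of 6 of Kupffer cells in CTRL. The counts in AAKO were 3, 4 and 5. Fewer were lower of 5 cholangiocyte markers (1 in CTRL, 1 in AAKO) and 4 T cell markers (1 and 2). Of 2 tested erythroid markers 1 and 2 were lower. Of B cell, neutrophil, adipocyte and exocrine pancreas markers 0 were lower in either genotype. Hepatocyte markers had 3 of 7 lower in CTRL and 0 of 7 in AAKO. These comparisons also hold the change of experiment and the gavage. The part of each in the counts was not tested.

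Zfp707 ran from 1.68 to 2.19 (median 1.93) in fed and from 2.49 to 2.92 (median 2.62) in CL316243 CTRL livers (0.74 ± 0.14, 0.000176). In AAKO it ran from 2.19 to 2.39 in fed and from 2.72 to 3.73 in CL316243 livers (0.94 ± 0.14, 3.2e-06). Both genotypes showed a rise without overlap. Zfp867 ran from -2.25 to -1.35 in fed and from -0.94 to -0.53 in CL316243 CTRL livers (0.98 ± 0.23, 0.00211). Zfp799 rose by 0.76 in CTRL and 0.80 in AAKO by its chosen probe, whereas the mean of its 2 probes gave 0.01 in AAKO (0.973). Zfp710, with 2.52 to 2.75 in fed and 1.75 to 2.14 in CL316243 AAKO livers, fell by 0.66 without overlap (-0.66 ± 0.08, 1.92e-07), and in CTRL its difference was -0.30 (0.00603). Zfp879 differed in AAKO by -0.71 ± 0.15 (0.000302). Zfp654 and Zfp944 were lower in CTRL, by -0.53 ± 0.11 (0.000964) and -0.26 ± 0.08 (0.0218), and the mean of their probes was not called (0.138 and 0.831).

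The interaction of genotype and CL316243 was called for 13 members (9.49%), 9 higher and 4 lower in AAKO, against 10.9% of all genes (6.24% higher, 4.64% lower). Of these calls 53.8% were higher in the authors' deposited values, against 69.2% here. Zfp938 led with 1.03 ± 0.13 (2.75e-06), since it rose by 0.80 in AAKO and its CTRL medians were -2.21 in fed and -2.41 in CL316243 mice. Zfp788 followed with 0.93 ± 0.24 (0.00906), at a dim probe where normexp gave 0.20 and no call (0.134), and Zfp790 with 0.63 ± 0.20 (0.0379). Downward, Zfp667 had -1.12 ± 0.26 (0.00436), Zfp708 -0.79 ± 0.22 (0.0178) and Zfp637 -0.41 ± 0.11 (0.00897). None of these 3 was called with the mean of its probes (0.333, 0.388 and 0.263).

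Fasting and CL316243 were compared within experiment 1. In CTRL mice 46 members differed (33.6%), 26 higher and 20 lower when fasted, against 37.1% of all genes (17.8% higher, 19.3% lower). The arrays did not overlap for 10 members upward and 6 downward (8.19% and 9.74% of all genes). Scaling to the array median gave 44.7% of these calls as higher, against 56.5% here. Zfp810 ran from -1.80 to -1.35 (median -1.5) with CL316243 and from -0.47 to -0.14 (median -0.25) when fasted, without overlap (1.24 ± 0.14, 1.36e-08). Zfp746 and Zfp787 were higher when fasted by 1.22 and 1.17. Lower when fasted were Zfp760 (-0.93 ± 0.23, 0.00139), Zfp667 (-0.79) and Zfp867 (-0.74 ± 0.23, 0.0111). Zfp867 ran from -1.70 to -1.26 in fasted CTRL livers, near the fed ones, so the CL316243 livers were the ones apart.

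In AAKO mice 95 members differed between fasting and CL316243 (69.3%), 36 higher and 59 lower when fasted, against 60% of all genes (25.9% higher, 34.1% lower). In the authors' deposited values 49.5% of these calls were higher, against 37.9% here. The arrays did not overlap for 21 members upward and 47 downward (16.2% and 21% of all genes). Zfp777, Zfp787 and Zfp746 were higher when fasted by 2.10, 2.07 and 1.58. Zfp933 ran from -0.42 to 0.10 (median -0.32) with CL316243, above its fed range of -1.12 to -0.57, and from -3.53 to -2.36 when fasted. Against the same fed livers it differed by 0.67 with CL316243 (0.00112) and by -2.05 with fasting, and the 2 groups differed by -2.72 ± 0.15 (2.28e-15). Its second probe gave 0.13, 0.47 and 0.34 for these 3 differences. Zfp873 was at least 5.25-fold lower when fasted, and Zfp760 differed by -2.47 ± 0.23 (5.43e-11).

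The corepressor machinery that KRAB zinc finger proteins use was described from 25 genes, all tested. No gene of the list was called between fed genotypes. In fasted mice 8 of 25 were higher and 8 lower in AAKO, where 21.9% of all genes were higher and 27.3% lower, and the list's median was 0.03. Trim28, the KRAB corepressor, ran from 3.70 to 4.26 (median 4.12) in CTRL and from 4.22 to 4.83 (median 4.46) in AAKO fasted livers and differed by 0.39. Setdb1 differed by -0.13 and was not called (0.200). Cbx5, which encodes the heterochromatin protein HP1 alpha, ran from -1.22 to -0.36 in CTRL and from -2.0 to -1.69 in AAKO fasted livers, without overlap (-1.09). The DNA methyltransferases Dnmt1 and Dnmt3a were lower, with differences of -0.99 and -1.29. Uhrf1, Daxx, Suv39h1 and Suv39h2, which act in DNA methylation upkeep, histone H3.3 loading and H3K9 methylation, were higher by 0.77, 0.72, 0.64 and 0.64. With CL316243, 5 of the 25 were higher and 2 lower in AAKO, where 13% of all genes were higher and 11.6% lower.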

How the data were processed

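RNA from 36 livers, 6 in each of 6 groups, was measured on Agilent 1-colour arrays. The scanner files hold spot intensity values from Agilent Feature Extraction 10.10.1.1 with probe positions on mm9, and in the processed intensity per the file headers, the software had subtracted background and removed a multiplicative trend. The authors also deposited log2 values of 36898 probes, whose normalization is not given in the sources used here. Their scale and direction follow the scanner signal in 36 of 36 columns, all columns of a group hold the same sorted values, and the column medians lie between 6.88 and 7.01. They were used only as an alternative, and how the probes were selected is unknown. No annotation of exons on mm9 was used, so the part of the gene under a probe is not given. Promoter sequences and synonyms came from RefSeq tables of GRCm38.p6, in which 129 members matched by symbol. Protein sequences were not analysed here.

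From the processed intensity, log2 values minus the log2 75th percentile of each array were computed. Spots marked as outliers (2701, 0.127%) were left out, and 0 spots were saturated. Genes read well above background by 5 or 6 of the 6 arrays of some group entered a limma fit (limma 3.58.1, R 4.3.3) of all 36 arrays, with 6 group means, the wash batch as a term and moderated two-sided tests adjusted by Benjamini-Hochberg at 0.05. A gene not above background on any array of a group has only a bound, given as at least N-fold. That bound sets the mean of the brighter group against the mean, over the dim arrays, of the higher of the lowest detected signal and the gene's own value. On simulated data for the fasted genotype comparison (24102 genes), 97.5% of changes of -2, 92.5% of -1, 45% of -0.5, 52.5% of 0.5 and 72.5% of 1 (log2) were recovered, and 8 unchanged genes were called. The simulation shifted only a small share of these genes, whereas 49.2% were called in the real comparison. The adjustment was therefore stricter in the simulation, and its rates need not hold for the real data. The number of arrays limits the precision.

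Of the called members, the 10 highest and 10 lowest differences per comparison may be named, those without overlap first, and the first 3 are given by sample. The members, the lists and this rule were chosen with earlier results of these data known, and the promoter letters after reading the promoters. Replicate numbers of different groups did not pair the arrays, because correlations of same-numbered arrays ran from -0.30 to 0.36. Alternatives covered background correction, scaling, the filter, the choice of probe, the wash batch, slides, a replicate block, the groups in the fit and each array left out.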

Additional observations from a re-analysis of the deposited data

Results flagged for a closer look

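Among 174 sets of 6 arrays (29 members in 6 groups), 9 held an array that stood apart by Dixon's criterion at 95%, where chance gives about 1 in 20. CTRL fasted replicate 2 accounted for 4 of them. It read 6.08 for Zfp622 (next array 5.52), 3.14 for Zfp777 (2.80), -4.35 for Zfp748 (-2.59) and -1.90 for Zfp760 (-1.17), each on the side of the AAKO fasted arrays. In CTRL CL316243 livers, replicate 3 read -2.31 for Zfp618 (next -1.54) and replicate 5 read 3.70 for Zfp637 (3.44). AAKO fed replicate 6 read -0.08 for Zfp708 (0.25), AAKO fasted replicate 2 read -1.94 for Zfp760 (-2.77), and AAKO CL316243 replicate 3 read -1.09 for Zfp874b (-1.16).

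Genotype differences that themselves differed between conditions were led by these members. Between fasted and fed mice the change of the difference was 1.13 for Zfp689, 1.1 for Zfp622 and 1.09 for Zfp623, and -2.55 for Zfp873, -2.06 for Zfp667 and -1.93 for Zfp750. Between CL316243 and fed mice it was 1.03 for Zfp938, 0.93 for Zfp788 and 0.63 for Zfp790, and -1.12 for Zfp667, -0.79 for Zfp708 and -0.41 for Zfp637. Between fasted and CL316243 mice it was 1.24 for Zfp777, 0.98 for Zfp622 and 0.90 for Zfp787, and -2.38 for Zfp873, -2.12 for Zfp933 and -1.93 for Zfp748.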

How the results depend on the processing

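Within each wash batch fewer arrays were fitted and fewer members were called. In batches 1 and 2 the counts were 10 and 7 between the CL316243 genotypes, 26 and 13 for CL316243 against fed in AAKO, 8 and 6 in CTRL, and 29 and 32 for fasted against fed CTRL. They were 2 and 1 for the CL316243 interaction, 40 and 27 for the fasting interaction, and 36 and 31 for the genotype difference in fasted against CL316243 mice. Fasted against CL316243 in CTRL had 15 in batch 1, and the fed genotypes had 0 in batch 2 (10 with an unadjusted limma p under 0.05). Between the fasted genotypes the batches gave 60 and 68. Under the other settings every count of called members stayed within 1.5 times its value. The median difference of the members between fasted genotypes was -0.15 with normexp and -0.14 in the authors' deposited values.

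Leaving out 1 array gave 1 member between fed, 86 to 96 between fasted and 28 to 38 between CL316243 genotypes. Fasted against fed gave 48 to 60 in CTRL and 97 to 101 in AAKO, CL316243 against fed 29 to 34 and 41 to 49, and fasted against CL316243 39 to 45 and 92 to 98. The interactions gave 58 to 70 for fasting, 10 to 15 for CL316243 and 65 to 71 for fasted against CL316243. Without CTRL fasted replicate 2 the fall of Zfp933 in CTRL (-0.40) was no longer called (-0.29). The main fit did not treat the replicate numbers as pairs. With a replicate block, 38 members were called between CL316243 genotypes and 90 between fasted genotypes, and the fed comparison kept 1. Of 206 named values 2 lost their call there, the CL316243 interactions of Zfp710 (adjusted p = 0.051) and Zfp790 (0.0525).

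The 9 tested members of the chromosome 13 run, a count added after the data were seen, were 9 of 9 lower under each setting except within wash batch 1, with 8. Averaging all probes of a gene turned Zfp668 between CL316243 genotypes to 0.00 and Zfp827 for CL316243 against fed AAKO to 0.16, and ended 26 other calls of named values. The cause was not tested. Dim probes limit the size of the fitted differences.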
